A study of Drosophila melanogaster with 3 samples.

Results

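The large subunit cytoplasmic ribosomal protein genes of Drosophila melanogaster were described by the peaks of CG17385 at their start sites. The members were the protein-coding genes whose symbol begins with RpL or RpLP followed by a digit in the Ensembl annotation of the Release 6 (dm6) genome. There were 54 of them among 13945 protein-coding genes of the main chromosomes. Chromatin immunoprecipitation sequencing (ChIP-seq) had been run on whole embryos of both sexes, collected over 0 to 24 h, from a line carrying CG17385 with GFP at its C-terminus. There was 1 group of 3 biological replicates, so no comparison between genotypes or treatments was possible, and no precipitation from embryos without the tag was compared. The embryos hold all tissues and stages of the collection, so a peak cannot be assigned to a cell type. The labels disagree in a single line, which names every sample as input, while the remaining labels give the assay and the antibody of a ChIP; the peaks were taken as ChIP peaks.

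The large subunit of the cytoplasmic ribosome holds the catalytic centre that joins amino acids and the tunnel through which the new chain leaves. Its proteins are needed in matched amounts, and their genes are among the most highly transcribed of a growing cell. In flies, many ribosomal protein promoters start transcription within a run of pyrimidines, the TCT start, in place of the usual initiator, and some lie close to other promoter elements such as the DRE, the element bound by the factor DREF. Loss of 1 copy of many of these genes gives the slow-growing Minute flies. Symbols ending in -like also cover proteins outside the mature ribosome: the yeast counterparts of RpLP0-like, RpL24-like and RpL7-like are ribosome assembly factors.

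The starts of a few members are printed here from the RefSeq copy of the Release 6 genome, because the results below turn on where the summit lies relative to them and on the letters found there. Each line runs 5′ to 3′ on the strand of its gene, with 50 bases before an annotated start site and 30 bases after it. Capitals mark CTTTT or CTTTC with its C within 5 bases of the start (a TCT-type start), and the word TTTCCGG on the gene's strand. Capitals also mark the DRE (TATCGATA), the E-box (CACGTG) and core promoter motif 1 (GGTCACAC) on either strand. The first set shows 5 members that hold both a TCT-type start and TTTCCGG downstream of it. The windows were chr3L:2587406-2587485 (plus strand) for RpL8, chr3L:8600956-8601035 (plus strand) for RpL14, chr3R:25685022-25685101 (minus strand) for RpL27, chr3R:30046132-30046211 (minus strand) for RpL32 and chr3L:7241322-7241401 (minus strand) for RpL18.
RpL8: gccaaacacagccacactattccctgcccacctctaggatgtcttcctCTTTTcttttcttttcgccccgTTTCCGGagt
RpL14: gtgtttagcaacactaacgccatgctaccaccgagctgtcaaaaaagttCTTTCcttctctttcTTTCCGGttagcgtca
RpL27: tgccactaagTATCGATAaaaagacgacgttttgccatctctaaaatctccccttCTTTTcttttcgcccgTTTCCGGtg
RpL32: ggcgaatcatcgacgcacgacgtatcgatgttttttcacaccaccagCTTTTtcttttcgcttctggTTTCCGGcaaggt
RpL18: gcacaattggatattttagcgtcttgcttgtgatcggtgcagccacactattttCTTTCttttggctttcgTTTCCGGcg

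The second set shows 4 members with strong peaks whose printed start is not of the TCT type. The windows were chr3R:26059238-26059317 (minus strand) for RpL34a, chr3R:11431553-11431632 (minus strand) for RpL24-like, chr2L:10200954-10201033 (plus strand) for RpL7 and chrX:765101-765180 (minus strand) for RpL22. RpL34a holds a DRE upstream and TTTCCGG downstream of the start, and RpL24-like holds a DRE upstream. RpL7 holds motif 1 and an E-box, and RpL22 holds none of the marked words in this window. RpL7 is counted below among the members with a TCT-type start through its other annotated start.
RpL34a: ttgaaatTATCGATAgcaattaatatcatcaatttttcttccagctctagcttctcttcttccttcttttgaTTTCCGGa
RpL24-like: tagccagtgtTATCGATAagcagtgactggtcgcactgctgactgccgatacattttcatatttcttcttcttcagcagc
RpL7: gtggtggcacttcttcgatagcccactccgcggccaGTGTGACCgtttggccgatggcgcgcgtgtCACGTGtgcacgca
RpL22: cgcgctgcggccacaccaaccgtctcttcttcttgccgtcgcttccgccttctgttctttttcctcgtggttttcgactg

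The third set shows 4 members with a weak peak or none in the final list. The windows were chr3L:11822801-11822880 (plus strand) for RpL10Ab, chr2L:4227649-4227728 (plus strand) for RpL40, chr3R:15037316-15037395 (plus strand) for RpL10Aa and chr2L:8042880-8042959 (minus strand) for RpL36A. RpL40 has a TCT-type start, so that start is not limited to members with a strong peak. RpL36A has a DRE, but it also had summits in replicates 1 and 3, at ranks 2281 and 2821 (rank 1 the strongest). These lay nearer to its other start, at 8042859, than to the one printed.
RpL10Ab: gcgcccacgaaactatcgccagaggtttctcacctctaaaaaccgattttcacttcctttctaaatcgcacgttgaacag
RpL40: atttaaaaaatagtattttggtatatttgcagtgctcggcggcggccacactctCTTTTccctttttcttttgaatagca
RpL10Aa: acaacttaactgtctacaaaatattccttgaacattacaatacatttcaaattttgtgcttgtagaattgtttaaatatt
RpL36A: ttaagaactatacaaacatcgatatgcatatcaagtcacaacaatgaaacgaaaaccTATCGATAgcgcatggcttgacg

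Most members carried a reproducible peak at their start. The authors kept 7588 peaks after the irreproducible discovery rate (IDR) step, which compares replicates, and a gene was called when an IDR summit, the base of highest signal within a peak, lay within 500 bp of one of its annotated start sites. By this rule 48 of the 54 members (88.9%) had an IDR peak, against 26.9% of all protein-coding genes. In the pooled list of 30000 peaks and background regions from which the IDR peaks were drawn, 50 members (92.6%) had a summit in the same window, against 47.6% of all protein-coding genes. The 4 members with a summit in neither list were RpL10Aa, RpL22-like, RpL36A and RpL37-2. RpL40 and RpL21 had a summit in the pooled list only. At 11 members the window held more than 1 IDR summit, and the strongest was taken.

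The share was measured again in each replicate list, which also holds 30000 regions, with the 7588 strongest of each list (top N). In replicate 1, 47 members (87.0%) had a top-N summit at a start site, against 27.9% of all protein-coding genes. In replicate 2 the figures were 47 members (87.0%) and 25.2%. In replicate 3 they were 50 members (92.6%) and 28.3%. The share of members minus the share of all other protein-coding genes was 59.4, 62.1 and 64.5 percentage points in replicates 1, 2 and 3, a mean of 62.0 ± 2.57 points (SD, n = 3). The gap was larger than this SD, which measures only the spread of the replicate lists over the same genes. No p-value is given, since an exact sign-flip permutation test over 3 replicates cannot go below a 2-sided p of 0.25.

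Peaks of the members were stronger than those of other genes. The signal of a peak, a score the authors deposited on a scale that is not stated, had a median of 913 at the 48 members with an IDR peak (quartiles 480 and 1216, range 163 to 2806). The median was 379 at the 3698 other genes with an IDR promoter peak. Of the 48 members, 43 lay above that value, and 27 (56.3%) were above 805, the signal that 25% of all genes with an IDR promoter peak exceeded. Genes whose peaks are shared with a neighbour are counted with that peak, in both groups.

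Replicate lists were matched to an IDR peak when their summit lay within 100 bp of its summit. Of the 48 members, 46 were matched in every replicate and 2, RpL26 and RpL10, in exactly 2. A match in the whole lists was also usual at other genes. Replicates 1, 2 and 3 matched 46, 48 and 48 members, and 3543, 3418 and 3614 of the 3698 other genes with an IDR promoter peak. How many other genes were matched in every replicate was not counted for the whole lists. When only the top N of each replicate counted, 44 members (91.7%) were matched in every replicate, against 70.2% of the other genes with an IDR promoter peak. The matched members had median ranks of 936, 1050.5 and 818 in replicates 1, 2 and 3, where rank 1 is the strongest region of a list. The medians of the other genes were 2804, 2635 and 2700.

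**Figure D1:**
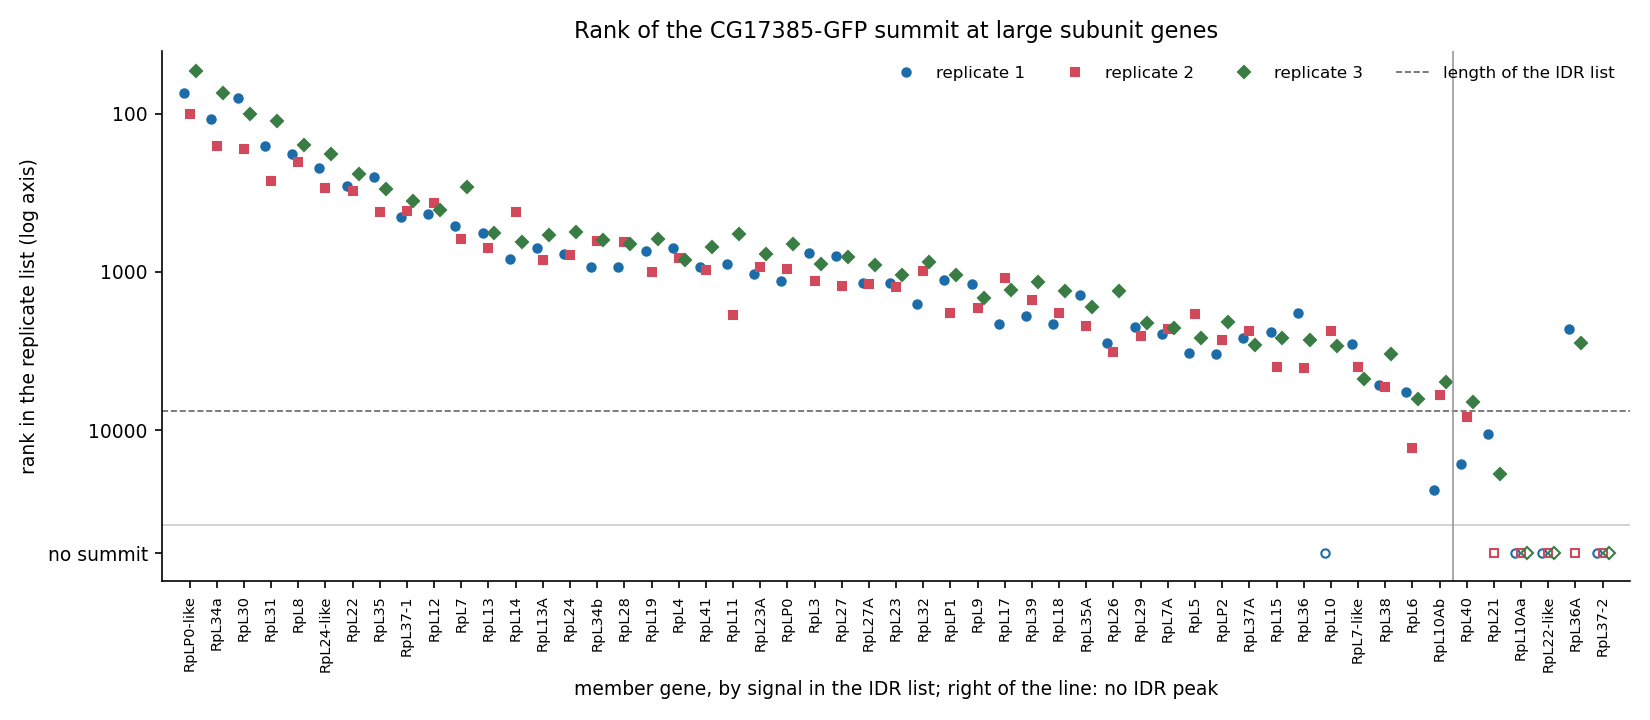
Rank of the summit at 53 of the 54 large subunit genes in the list of each replicate (log axis, strongest at the top), with genes ordered by their signal in the IDR list. Genes right of the vertical line have no IDR peak, and open symbols mark a replicate with no summit within the matching distance of the IDR summit or, for genes without an IDR peak, within 500 bp of a start site; RpL26 has no replicate 1 point by the first rule and is drawn at rank 2824, its strongest summit within 500 bp.

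The strongest signal among the members lay at RpLP0-like (FBgn0033485), whose yeast counterpart is an assembly factor. Its gene runs from 10098518 to 10099590 on the minus strand of chromosome 2R, and its summit at 10099694 ranked 74, 101 and 54 in replicates 1, 2 and 3. This summit lay upstream of the RpLP0-like start at -104 bp, and 17 bp downstream of the start of its neighbour 14-3-3zeta, which encodes a phosphoprotein-binding adaptor. All 3 replicates placed it among the strongest regions of their lists. RpL34a (FBgn0039406), a protein of the mature large subunit, followed with a signal of 2545, a summit at -30 bp from its start and ranks of 108, 161 and 74. RpL30 (FBgn0086710), another protein of the mature subunit, which in yeast binds its own transcript, had a signal of 2488 at 12 bp and ranks of 80, 168 and 101. These genes ranked higher in replicates 1 and 3 than in replicate 2, and in every replicate they were within the first 168 regions.

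RpL31, which lies beside the exit of the tunnel, had a signal of 2166 and ranked 159, 265 and 111 in replicates 1, 2 and 3. RpL8, a core protein next to the catalytic centre, had a signal of 2112 and ranked 180, 203 and 157. RpL24-like, the second member of the assembly factor kind, had a signal of 1932 and ranked 220, 295 and 180. These genes, like the 3 above, had their lowest position in replicate 2. RpL22, an RNA-binding protein of the large subunit, had a signal of 1793 and ranked 288, 306 and 242. RpL35 of the tunnel exit had a signal of 1700 and ranks of 251, 417 and 298. RpL37-1 and RpL12 closed the 10 strongest members at signals of 1512 and 1473, and RpL12 was the 1 gene of the 10 that ranked highest in replicate 2 (430, 369 and 405 in replicates 1, 2 and 3).

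The genes were next taken by the place of their proteins in the ribosome. The P stalk, the flexible arm that calls in the elongation factors, had an IDR peak at all 4 genes listed for it. RpL12, at the base of the stalk, had the highest of these signals (1473), followed by RpLP0 (925), RpLP1 (719) and RpLP2 (414). RpLP0 ranked 1137, 962 and 667 in replicates 1, 2 and 3, RpLP1 ranked 1128, 1821 and 1048, and RpLP2 ranked 3288, 2706 and 2072. The order of these genes by signal held in each replicate except that RpLP1 stood just above RpLP0 in replicate 1.

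RpL5 and RpL11, which travel with the 5S RNA and bind the p53 regulator MDM2 in mammals, both had an IDR peak. RpL11 had a signal of 947 and ranked 891, 1861 and 575 in replicates 1, 2 and 3. RpL5 had a signal of 430 and ranked 3275, 1845 and 2610. The replicates did not place these genes in the same order, since RpL5 stood just above RpL11 in replicate 2 and below it in the others. RpL11 had the second widest spread of ranks of all members matched in every replicate, 3.24-fold between its highest and lowest rank.

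At the catalytic centre, RpL3 had a signal of 901 and ranked 756, 1136 and 886, and RpL10, which joins the subunit late in assembly, had a signal of 356. Of the proteins that line the tunnel, RpL4 had a signal of 999, RpL17 637 and RpL39, among the shortest proteins of the ribosome, 630. All 6 genes of the ring around the tunnel exit had an IDR peak, with a median signal of 972. They ran in the order RpL31 (2166), RpL35 (1700), RpL19 (1017), RpL23A (928), RpL17 (637) and RpL26 (490). The L1 stalk, which guides the spent tRNA out, had an IDR peak at RpL10Ab only (signal 163). None of these groups was tested against the rest, and each holds at most 6 genes.

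The summits lay close to the start sites. The median position was -1.5 bp from the nearest start site of the gene, and the median absolute distance was 18.5 bp, against 143 bp at the other genes with an IDR promoter peak. Members had more annotated start sites, a mean of 1.70 against 1.41 over all protein-coding genes. Counts that take any start site, here and elsewhere, thus gave them more places to match. Of the 48 members, 40 (83.3%) had the summit within 50 bp, against 20.6% of the other genes. Summits were upstream in 24 members and at or downstream of the start in 24 (50% upstream, against 75.3% of the other genes). By annotation, 24 of the member summits were in an untranslated part of an exon, 20 outside the gene, 3 in an intron and 1 in a coding exon. In the replicate lists, the median position of the matched summits was 5, -12.5 and -8.5 bp in replicates 1, 2 and 3, so the side of the start site differed between replicates. Among the 25 members with no neighbour's start site near the summit, 22 (88%) lay within 50 bp with a median distance of 15 bp, against 21.9% and 147 bp for 1869 other genes of that kind.

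**Figure D2:**
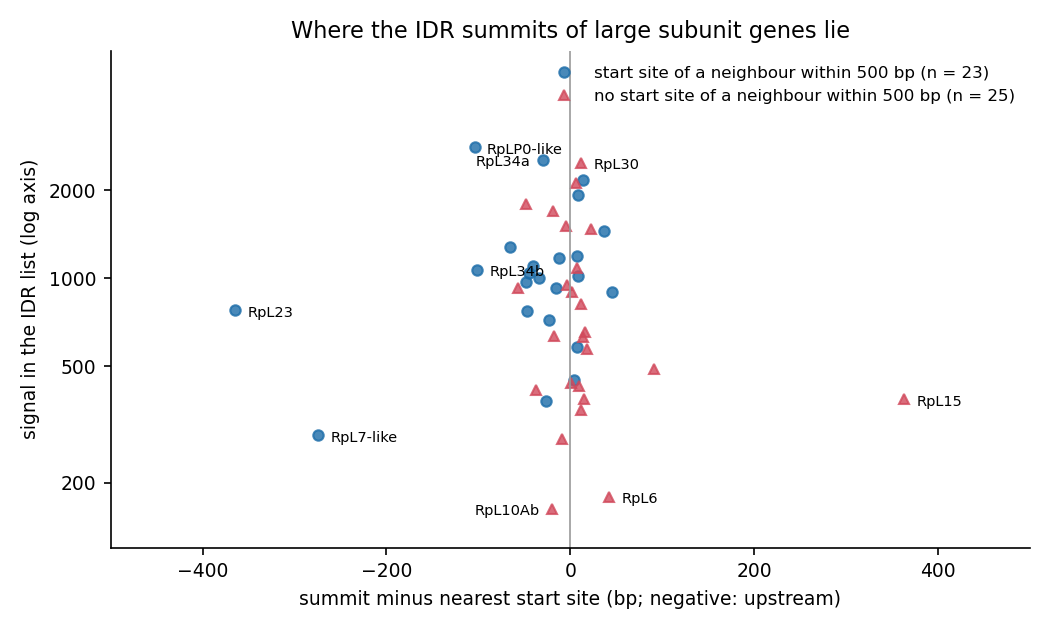
Position of the IDR summit relative to the nearest start site of each of 48 members (horizontal, bp, negative upstream) against its signal in the IDR list (vertical, log axis). Circles are members whose summit has the start site of another protein-coding gene within 500 bp (n = 23) and triangles those without (n = 25); 40 of the 48 points lie within 50 bp of the start.

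Of the members, 5 had the summit more than 100 bp from their start. RpL23, a protein of the face that meets the small subunit, had its summit at -365 bp with a signal of 778, and replicates 1, 2 and 3 placed it at -364, -363 and -363 bp. This summit lay nearer to the start of the neighbour CG13531, and a weaker IDR summit also lay within 500 bp of the RpL23 start. RpL15 (FBgn0028697) had its summit at 363 bp, inside a coding exon, and the replicates placed it at 361, 361 and 362 bp. These positions repeated within 2 bp over the replicates. RpL7-like had its summit at -274 bp in the IDR list but at -300, -309 and -181 bp in replicates 1, 2 and 3, so its position varied more between replicates than those of RpL23 and RpL15. RpLP0-like (-104 bp) and RpL34b (-101 bp) were just beyond the limit.

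Shared promoters were common at the members, at about the rate seen elsewhere. In 23 of the 48 members (47.9%) the summit had the start site of another protein-coding gene within 500 bp, against 49.5% of the other genes with an IDR promoter peak. In all 23 at least 1 of these neighbours was on the opposite strand, a share that was not counted for the other genes. In 3 members, RpLP0-like, RpL23 and RpL7-like, the summit was nearer to the neighbour's start than to the member's own. Each of these 3 had 2 IDR summits in its window, and only the stronger is described. The other genes were not counted in this way. The members that shared their summit had a median signal of 1017, and the 25 that did not had 637. No summit was shared by 2 members.

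The strongest shared summits were those of RpLP0-like with 14-3-3zeta, RpL34a with the tRNA methyltransferase gene Trmt61, RpL31 with CG12929, RpL24-like with CG5276 and RpL7 with Ripalpha, whose product binds single-stranded DNA. RpL7 had a signal of 1451 and ranked 516, 622 and 289 in replicates 1, 2 and 3, with a summit at 37 bp from its own start and at -67 bp from that of Ripalpha. RpL13 shared its summit (signal 1196) with Dref, the gene of the DRE-binding factor, at 7 bp from the RpL13 start and -91 bp from the Dref start. RpL14 (1174) shared with Nelf-E, a subunit of a complex that holds RNA polymerase II near the start, and RpL28 (1046) with the translation initiation factor gene eIF1.

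A single summit at RpL13A (1100) stood near the starts of both Dph4 and Spec2, which lie at the same distance from it, and the summit of RpL7-like (291) near those of JhI-21 and CG34164. Further shared summits were those of RpL34b with CG8132 (1069), RpL19 with CG3776 (1017), RpL4 with BCAS2 (999), RpL41 with NaCP60E (975), RpLP0 with CG7130 (925) and RpL3 with CG6693 (901). Lower in the list came RpL23 with CG13531 (778), RpL32 with CG7943 (774), RpLP1 with CG13690 (719), RpL18 with Neos (581), RpL29 with Sgf29 (451) and RpL36 with Mybbp1A (380). For such a summit the lists cannot tell which gene it belongs to.

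The 7 pairs of paralogs fell into 2 kinds. Both genes had an IDR peak in 4 pairs, and only 1 gene had it in the other 3. RpL34a had a signal of 2545 and RpL34b 1069. RpL24-like had 1932 and RpL24 1084, and RpLP0-like had 2806 and RpLP0 925, so in these pairs the gene of the assembly factor kind had the higher value. RpL7-like, of the same kind, had 291 and RpL7 1451, the opposite order. Both RpLP0-like and RpL24-like share their summit with a neighbour, and how much of their signal belongs to the neighbour was not tested. RpLP0-like, RpL24-like and RpL7-like each had 2 IDR summits in the window, of which the stronger gave the signal.

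In the other 3 pairs RpL22 had a signal of 1793, RpL37-1 had 1512 and RpL10Ab had 163, whereas RpL22-like, RpL37-2 and RpL10Aa had no peak. RpL22-like and RpL37-2 are known for expression in the testis. RpL37-2 and RpL10Aa had 1 exon each, against 4 each for RpL37-1 and RpL10Ab, and RpL22-like had 2 against 3 for RpL22. In the other pairs, RpL24-like with 2 exons had a higher signal than RpL24 with 5, and RpLP0-like with 3 a higher signal than RpLP0 with 5. RpL34a with 5 exons had a higher signal than RpL34b with 6, and RpL7 and RpL7-like had 5 each. RpLP2, with 1 exon, had an IDR peak. Whether the number of exons is related to the peaks was not tested. Reads that map to both copies of a pair can be lost or split, and the authors' handling of them was not given in the sources used here.

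**Figure D3:**
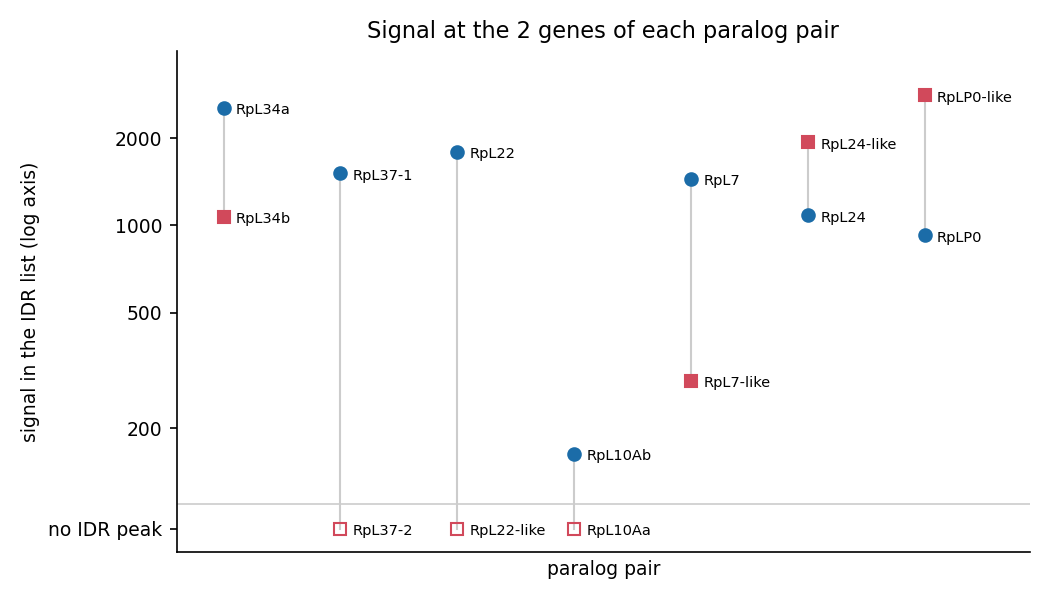
Signal in the IDR list (log axis) of the genes of 7 paralog pairs, 1 pair to a line, with open squares for genes without an IDR peak. The pair of RpL34 genes, RpL7, RpL24 and RpLP0 with their -like copies have 2 filled points each, and RpL37-2, RpL22-like and RpL10Aa sit at the bottom.

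The 5 weakest members with an IDR peak were RpL10, RpL7-like, RpL38, RpL6 and RpL10Ab. RpL7-like (291) ranked 2853, 4006 and 4735 in replicates 1, 2 and 3. RpL38 (283), which in mice is needed for the translation of Hox messages, ranked 5166, 5370 and 3324. RpL6 (179) ranked 5773, 12987 and 6362, and RpL10Ab (163) ranked 23819, 5965 and 4953. RpL6 in replicate 2 and RpL10Ab in replicate 1 were thus outside the top N, with −log10 q of 1.16 and 0.492. RpL10Ab had the widest spread of ranks among the members, 4.81-fold. Its IDR summit lay at -20 bp, and the matched summits lay at 79, -17 and -21 bp in replicates 1, 2 and 3. The replicate 1 summit was thus barely inside the matching distance of 100 bp, and whether it is the same peak was not tested.

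The limit of the IDR list fell between RpL10Ab (signal 163, rank 7409 in the pooled list) and RpL40 (155, rank 7870). RpL40 (FBgn0003941) is made as a fusion with ubiquitin. Its summit ranked 16328, 8291 and 6644 in replicates 1, 2 and 3, so it reached the top N in replicate 3 only. The positions were close, at 63, 71 and 66 bp from the start, and the ranks spread 2.46-fold. RpL40 and RpL10Ab thus differ little in signal although they fall on either side of the limit.

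RpL21 (FBgn0032987) had a pooled summit of signal 49.1 at rank 25438, far below the limit. It ranked 10633 in replicate 1 and 19024 in replicate 3, and replicate 2 had no summit at its start. RpL21 has 2 annotated start sites, and from the start at 22247833 the summit of replicate 1 lay 92 bp downstream and that of replicate 3 lay 88 bp upstream. The −log10 q of the pooled summit was 0.442.

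RpL10Aa, RpL22-like and RpL37-2 had no summit within 500 bp in any replicate. At RpL10Aa the nearest pooled summit was 2344 bp downstream of the start. At RpL22-like it was 7418 bp downstream, and at RpL37-2 8143 bp downstream. The closest summit of any replicate was 969 bp from the RpL22-like start, at rank 26691 of replicate 3.

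RpL36A (FBgn0031980), a protein near the site where the spent tRNA leaves, differed from these genes. Replicate 1 had a summit at 40 bp from its nearest start, with a signal of 142 and rank 2281. Replicate 3 had one at 18 bp, with a signal of 164 and rank 2821. Replicate 2 and the pooled list had none in the window, and both lacked any summit over a wide stretch around the gene, 47435 bp in replicate 2 and 40383 bp in the pooled list. RpL36A thus had a top-N summit in 2 of 3 replicates although it was counted among the members without a peak.

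RpL10 lay at the edge of an empty stretch of replicate 1. Its IDR summit (signal 356) was matched in replicate 2 at rank 2351 and in replicate 3 at rank 2930, and replicate 1 had no summit in the window. The nearest summits of replicate 1 were 552 bp upstream of the start, at rank 20509, and 97087 bp downstream, with none between them. Such stretches were counted over the genome. Of the 1103 stretches over 20000 bp without a summit in the pooled list, 47 held a top-N summit of another list. The counts were 10 of 1053 in replicate 1, 53 of 1000 in replicate 2 and 7 of 1009 in replicate 3. What made these stretches empty was not tested. At RpL26, the strongest summit of replicate 1 (rank 2824, 14 bp from a start site) lay outside the matching distance of the IDR summit.

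The members were set beside other gene lists of the same machinery. The large subunit members had an IDR peak in 88.9% of cases with a median signal of 913, and the 39 small subunit ribosomal protein genes in 33 cases (84.6%) with a median signal of 562. Among them RpS20 had the highest signal (2268) and RpS24 the lowest (160). Of the 47 mitochondrial large subunit genes, 23 (48.9%) had an IDR peak with a median signal of 304, the highest at mRpL11 (4140) and the lowest at mRpL27 (170). Of 14 genes for ribosome assembly factors, 8 (57.1%) had one, the highest at Ns1 (2266) and the lowest at Nop56 (163).

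By replicate, the share with a top-N summit was 88.9% ± 3.21 for the large subunit members and 81.2% ± 5.34 for the small subunit genes (SD, n = 3). It was 52.4% ± 4.12 for the assembly factor genes, 47.5% ± 7.47 for the mitochondrial genes and 26.9% ± 1.70 for all other genes. The large subunit share was the highest of these lists in every replicate. In the whole pooled list the order turned, with a summit at 92.6% of the large subunit members and at 37 of the 39 small subunit genes (94.9%). The large subunit share minus the small subunit share was 7.55, 10.1 and 5.41 percentage points in replicates 1, 2 and 3.

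**Figure D4:**
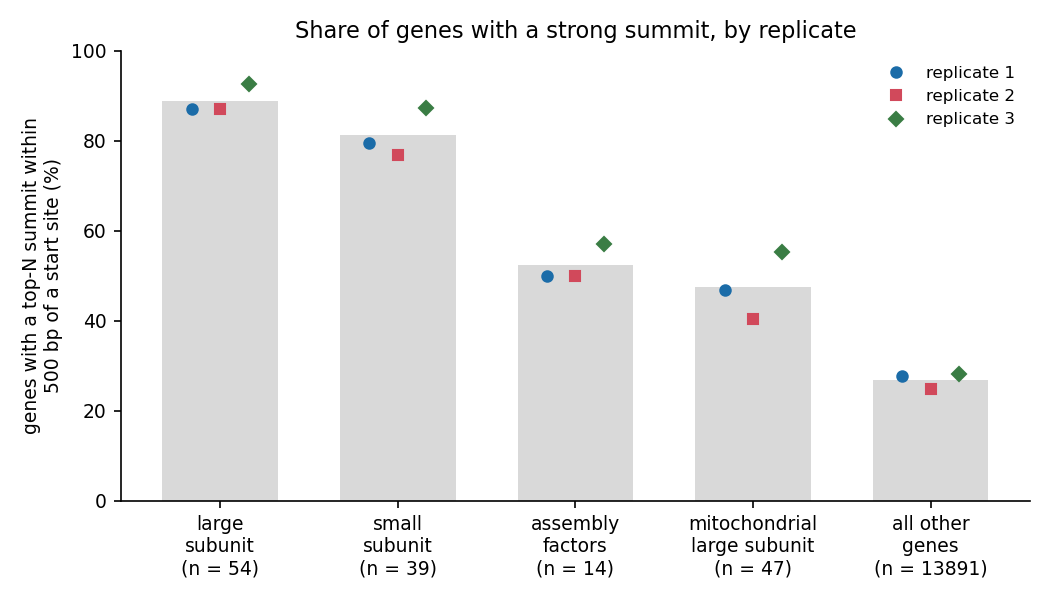
Share of genes with a top-N summit within 500 bp of a start site (percent), by gene list, with 1 point for each replicate and a bar for the mean of 3. The large subunit genes lie at 87.0, 87.0 and 92.6%, above the small subunit, assembly factor and mitochondrial genes and all other genes.

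Among the members, 16 (29.6%) host a small nucleolar RNA gene, against 13 of the 39 small subunit genes (33.3%) and 0.490% of all protein-coding genes outside the large subunit list. Of the 16, 15 had an IDR peak, near the share over all members (48 of 54). The hosts had a median signal of 928 and the members that host none 898. Members are short genes, with a median length of 1315 bp against 2166 bp over all protein-coding genes. By chromosome, an IDR peak was present at 6 of 6 members on X, 10 of 13 on 2L, 12 of 14 on 2R, 10 of 10 on 3L and 10 of 11 on 3R. The share over all protein-coding genes of each chromosome was not counted, so no difference between chromosomes is read from these small counts.

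Sequence features were counted last, with motifs chosen when earlier results of these data were known. A TCT-type start was found at 33 of the 54 members (61.1%), against 4.92% of the other protein-coding genes. The count depends on how near the C must lie: 9 members had it within 2 bases and 47 within 10 bases, against 1.98% and 9.24% of the other genes. Small subunit genes had a TCT-type start in 24 of 39 cases (61.5%) and mitochondrial large subunit genes in 2 of 47 (4.26%). A TATA box (TATAAA, starting 20 to 40 bases before the start) was present at 1 member, RpL39 (1.85%), against 9.43% of the other genes. Members with a TCT-type start had a median signal of 913, and those without 863.

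Within 100 bases on each side of the summit, the DRE was found at 11 of the 48 members (22.9%), against 5.39% of 2783 other IDR summits at promoters. The E-box was also found at 11 (22.9%), against 2.73%, and motif 1 at 7 (14.6%), against 3.56%. Core promoter motif 7, searched as CAGCNCTA, CATCNCTA, CAGCNCTG and CATCNCTG, was at 9 members (18.8%) and 16.0% of the other summits. The GAGA word GAGAG was at 7 members (14.6%) and at 27.7% of the other summits. All were searched on both strands, and none of these words contains another. The members with a DRE had a median signal of 1017 and those without 816, and the members with an E-box had 1084 and those without 898. For motif 1 the order was the other way, at 816 with it and 928 without. The medians with and without were 1100 and 816 for motif 7 and 975 and 901 for GAGAG. RpL37-1, RpL24-like and RpL34a were among the DRE members, and RpL8, RpL7, RpL11 and RpL24 among those with an E-box. Centred on the start site in place of the summit, the DRE was at 13 members and the E-box at 15, against 9.71% and 3.52% of the other genes.

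The word TTTCCGG was chosen after the words of 7 bases at the member summits had been counted, so its share in the members is a description only. On either strand it was at 21 of 48 member summits (43.8%) and at 2.69% of the other summits. Read on the gene's strand in bases 1 to 50 after a start site, it was at 18 of 54 members (33.3%) and at 57 of 13891 other genes (0.410%). It was at 6 of the 39 small subunit genes (15.4%) and at none of the 47 mitochondrial large subunit genes. Where these genes had an IDR peak, their summits were among the other summits against which the word was chosen. In the 18 members its first base stood between bases 7 and 38 with a median of 21.5, and in 13 of them between bases 18 and 25. The first exon ended within 10 bases of the last base of the word in 12 of the 18. In the lines above, the word begins at base 21 in RpL8, 15 in RpL14, 22 in RpL27, 18 in RpL32 and 22 in RpL18. Of these, RpL8 and RpL14 are not among the 12. The members with the word had a median signal of 747 and those without 987. RpL17 and RpL7A, both on X, share an identical run of 46 bases that holds the word, at 6744178 to 6744223 and at 6533212 to 6533257 on the minus strand.

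**Figure D5:**
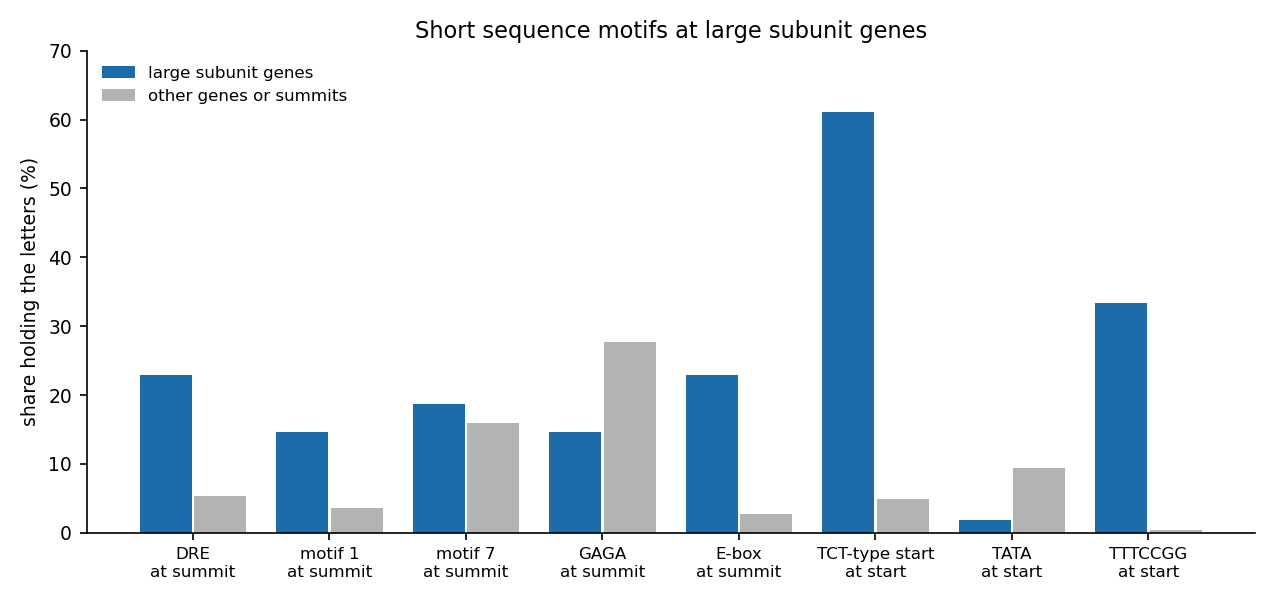
Share holding each motif (percent): large subunit genes in blue and other genes or summits in grey. The first 5 motifs were counted in the 100 bases on each side of 48 member summits and 2783 other IDR promoter summits, and the last 3 near the start sites of 54 members and 13891 other genes; the TCT-type start is at 61.1% of members and 4.92% of other genes.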

How the data were processed

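CG17385-GFP ChIP-seq was run on 3 biological replicates of whole embryos, with chromatin fragments of 200 to 800 bp per the labels. The deposited text notes trace every replicate list to its own alignment plus a file common to all 3, the pooled list to all alignments plus that file, and the IDR list to these lists. Signal values are scores deposited by the authors without a stated scale, so replicates were compared by rank. For every peak the authors deposited a −log10 q-value as well. Positions are on dm6, per the labels. Not given in the sources used here were the aligner, the caller, the threshold of the IDR step and the treatment of reads that map to several places. With 30000 regions in each replicate list and in the pooled list, the lists do not show their read depth, and no interval was computed from it. Every one of the 7588 IDR peaks was found in the pooled list with the same summit and signal.

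Start sites, exons and snoRNA genes came from the Ensembl annotation, and sequence from the RefSeq copy of the Release 6 genome. Python 3.11.15 and numpy 2.4.6 were used. Each gene was given the strongest summit within 500 bp of any of its start sites. Lists were matched by summits within 100 bp. The top N of a replicate list is its strongest 7588 regions. The assignment and the distances were first checked on invented data. All genes were processed alike. Values of single genes are printed for members and for the strongest and weakest gene of the compared lists. No test across genes was made, because there is 1 group and neighbouring genes can share a peak. All values are descriptions, with the SD over 3 replicates where one exists.

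The members, the gene lists and the motifs were chosen with earlier results of these data known. The rule for named genes takes every member without an IDR peak, the 10 strongest and the 5 weakest with one, every paralog of a pair, every member sharing its summit, and the 3 with the widest spread of ranks. It takes the strongest and the weakest gene of each other list. RpL15 and the genes named by their place in the ribosome or by a motif were added after their values were seen. The values of 1 member are not reported here on their own, although it is counted. Of 15 symbols listed for assembly factors, 14 were found in the annotation. Alternatives covered the window, the matching distance, the stretch of the list used, single replicates and the symbols included.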

Additional observations from a re-analysis of the deposited data

How the results depend on the processing

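Of 37 alternative calculations, 32 left a result within 1.5 times its count or within 1 SD over replicates, and 5 moved one further. Some of the 32 could not have moved. Leaving out a replicate cannot shift a mean of 3 replicates by 1 SD, and it cannot lower the number of members matched in every replicate. The numbers matched without a replicate also entered the count under both the IDR peak and the matching result. The number of members with an IDR peak ran between 44 (strongest 3794 peaks of the IDR list) and 49 (a top-N summit in 2 or more replicates, chosen after seeing the data). The IDR list could not be made again from fewer replicates, so leaving out a replicate gave only the number of IDR members matched in each of the others, 46 to 48. The number matched in every replicate was 43 with a match within 50 bp and 47 within 200 bp. The median signal ran between 901 and 937.

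The difference in share with a top-N summit was 64.9 points with a window of 250 bp, 57.8 points with 1000 bp and 65.5 points with the strongest 3794 regions in place of the top N. It was 60.8 to 63.3 points without 1 replicate, a range that only averages the replicate values already given. A neighbour's start site lay within 250 bp of the summit in 13 members, against 23 within 500 bp. A TCT-type start was at 9 members when the C had to lie within 2 bases, a limit chosen after seeing the data. The cause of these shifts was not tested, beyond the narrower limits themselves. No paired analysis was possible because there was 1 group. The unknown read depth means that a member without a summit was not detected in these lists, not that CG17385 is absent there.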
